A study of Mus musculus with 10 samples.

Results

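Potassium channel genes were followed in epithelium of the mouse cochlear duct at E13.5, before hair cells have differentiated. The genes were the 92 autosomal protein-coding genes, of 20665 in a RefSeq table of the mm10 build, whose symbols begin with Kcn. They comprised 39 voltage-gated alpha subunits, 8 calcium- or sodium-activated channels, 15 inward rectifiers, 14 members of the Kcnk family (channels with a pair of pore domains per subunit), 15 auxiliary subunits and Kcnrg, a regulator of voltage-gated channels. Kcnd1 and Kcne1l, on chromosome X, were left out because the wildtype lists held no peaks on X. Open chromatin had been profiled by ATAC-seq in 2 libraries of SoxC double knockout and 3 libraries of wildtype epithelium, and Sox4 binding by CUT&RUN in 3 replicates of FACS-sorted, GFP-positive progenitors of p27kip1-GFP mice, whose genotype label was wildtype. ATAC-seq was made from unsorted epithelia freed with dispase and collagenase, from ducts that the labels also call whole organ. The ATAC labels of the knockout give no allele or Cre driver. The single-cell label of the same genotype names a Pax2cre SoxC fl/fl strain, and Pax2 marks much of the developing ear, so a conditional deletion of this kind need not reach every cell of the tissue. The labels do not say whether replicates came from separate embryos or pools, so p-values measure the spread between these libraries, which may be technical.

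Potassium channels let potassium cross the cell membrane and set the resting potential, the shape of action potentials and receptor potentials, and the recycling of potassium. In the mature cochlea, hair cells use Kcnma1 and Kcnn2, and the stria vascularis secretes potassium into the endolymph through Kcnq1 with Kcne1, with Kcnj10 helping to generate the endocochlear potential. Open chromatin near a gene shows regulatory DNA that is accessible in some of the cells, and it is not a measure of the gene's expression. In these bulk libraries, fewer cells with an open region and less opening per cell cannot be told apart.

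Each value below is a rank. The peaks of a library, merged where they overlapped, were ordered by the -log10 p that the authors' peak caller gave them, with rank 1 the strongest, and each peak belonged to the nearest coding gene within 100 kb. A region was the union of overlapping windows, 250 bp on each side of a summit, among the 50000 strongest peaks of each library, and it was called open in a genotype when all libraries of that genotype had such a window there. The lists held no read counts, so depth was unknown and no counting interval could be given. All 92 channel genes had a peak in both knockout libraries, and 89, 91 and 89 of them had one in wildtype replicates 1 to 3. Channel genes held 0.77% to 0.78% of the merged peaks near a gene in the knockout lists and 0.87% to 0.99% in the wildtype lists. The peak ranked 50000 had a -log10 p of 104 and 50.5 in knockout, against 19.0, 10.5 and 8.75 in wildtype. The knockout lists further bear a p threshold and a limit on peak number in their names, which the wildtype lists do not. Genotype and list processing therefore cannot be told apart in any comparison here. The gene ends of Epcam and Cdh1, which encode epithelial adhesion proteins, were open in both genotypes, as were those of Sox2 and Fgf10, so that 4 of 7 epithelial genes were. The end of Pax2 was open in knockout only, at rank 32093 and 31278, against 46081, 41725 and 59672 in wildtype. That of Gata3 was open in wildtype only, at rank 54835 and 57143 in knockout, against 12638, 25289 and 23159 in wildtype. The end of Jag1 was called open in knockout only, but its ranks overlapped, with 9343 and 8631 in knockout and 9762, 7719 and 6163 in wildtype. That call depends on where the summit windows fall, and no genotype difference can be read from it. Of other cell types, Csf1r of macrophages had no peak at its ends in any library and Pecam1 of endothelium had one in knockout replicate 1 alone. Open ends in both genotypes were found at 2 of 4 mesenchyme genes (Col1a1 and Tbx18) and at 2 of 3 neuron genes (Isl1 and Tubb3), and at none of 4 genes of blood and endothelium. The end of Isl1, which also marks the prosensory domain, ranked 23673 and 24488 in knockout and 1812, 1375 and 900 in wildtype. Neurod1 of the same list had no open end and ranked 77672 and 128599 in knockout, against 81535, 82592 and 50542 in wildtype. The part of such cells in the results on channel genes was not tested.

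Most channel genes lay near open chromatin at this stage. In knockout 78 of the 92 genes were nearest to at least 1 open region, where 72.1% of all coding genes were, and in wildtype 69 genes were, where 65.9% of all coding genes were. Both genotypes shared 67 of these genes, and 12 genes were open in neither, beside 13272 and 5406 of all 20665 coding genes. A region within 1 kb of either gene end was open at 46 channel genes in knockout (50%) and at 43 in wildtype (46.7%), beside 58.7% and 56.1% of all coding genes. Such ends were open in both at 37 channel genes, beside 11082 of the 20665 coding genes. The ends open in knockout but not in wildtype were those of 9 of the 92 genes, beside 1052 of the 20665 coding genes. The ends of Kcnd2, Kcnh5, Kcnh7, Kcnv1, Kcnc2 and Kcnk10 were open in wildtype but not in knockout, as were those of 510 of all coding genes. The channel genes were longer than most, with a median span of 34546 bp beside 17491 bp for all coding genes, and 539 regions belonged to them in all.

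Promoters could be read directly at some of the genes. RefSeq promoter windows of the GRCm38.p6 assembly, from 250 bases before to 50 after a start, were found for 68 of the channel genes. A window overlapped open chromatin at 20 genes in knockout (29.4%) and at 24 in wildtype (35.3%), against 54.9% and 54.0% of the 16457 coding genes with a window. None of the channel genes' windows held a Sox4 site, beside windows of 632 of the 16457 coding genes. With so low a share over all genes, finding none among 68 genes does not clearly set the channel genes apart from the others. The core letters bound by SOX factors, ACAAAG and ACAATG, which share their first 4 letters, were searched on both strands. One or the other stood in 20.4% of the channel genes' 93 windows and in 24.9% of the 20085 windows of all genes. Among the channel genes' windows they stood in 5 of the 26 open in wildtype and in 14 of the 67 others. The windows of Kcnt2, Kcna4, Kcnh7 and Kcnd2 are printed because regions over them carried some of the largest differences between genotypes at a gene end. Letters are given 5′ to 3′ on the gene's strand, in lower case, with a SOX core in capitals, and Kcnt2 alone of the 4 held one.
Kcnt2 (chr1:140245468-140245767, plus strand): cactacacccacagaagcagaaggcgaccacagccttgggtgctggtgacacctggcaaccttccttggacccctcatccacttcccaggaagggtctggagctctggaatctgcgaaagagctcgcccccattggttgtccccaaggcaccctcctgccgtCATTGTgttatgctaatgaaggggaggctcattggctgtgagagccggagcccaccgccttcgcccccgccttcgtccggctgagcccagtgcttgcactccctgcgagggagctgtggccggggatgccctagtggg
Kcna4 (chr2:107290339-107290638, plus strand): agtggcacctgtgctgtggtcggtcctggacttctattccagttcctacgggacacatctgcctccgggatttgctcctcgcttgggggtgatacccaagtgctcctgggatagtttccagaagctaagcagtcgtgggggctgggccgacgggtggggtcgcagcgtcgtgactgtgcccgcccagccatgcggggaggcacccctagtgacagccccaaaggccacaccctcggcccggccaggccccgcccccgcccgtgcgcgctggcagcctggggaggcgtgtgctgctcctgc
Kcnh7 (chr2:63184238-63184537, minus strand): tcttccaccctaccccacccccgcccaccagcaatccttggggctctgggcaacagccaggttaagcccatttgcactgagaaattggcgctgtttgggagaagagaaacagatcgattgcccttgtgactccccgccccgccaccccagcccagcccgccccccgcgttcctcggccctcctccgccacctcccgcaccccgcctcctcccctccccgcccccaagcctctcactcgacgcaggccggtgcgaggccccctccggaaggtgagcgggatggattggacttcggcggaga
Kcnd2 (chr6:21215096-21215395, plus strand): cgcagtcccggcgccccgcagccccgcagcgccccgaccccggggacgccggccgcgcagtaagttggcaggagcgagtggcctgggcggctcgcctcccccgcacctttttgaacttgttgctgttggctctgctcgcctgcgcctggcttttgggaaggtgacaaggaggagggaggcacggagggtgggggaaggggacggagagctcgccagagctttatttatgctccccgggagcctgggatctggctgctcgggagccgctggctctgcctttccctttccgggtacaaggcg

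By the worst of its 3 wildtype ranks, the strongest region of the channel genes belonged to Kcnj10, the inward rectifier Kir4.1 of glia, supporting cells and strial intermediate cells. Regions of Kcnt2, Kcna4, Kcnh8, Kcnab2, Kcnn2 and Kcnj2 were also among the strongest. The Kcnj10 region, inside the gene and 8560 bp from its nearer end (chr1:172349770-172350302), ranked 5135 and 3217 in knockout, against 733, 778 and 486 in wildtype. Here every wildtype rank was ahead of every knockout rank. This and the other regions named here were picked by their wildtype ranks, which by itself favours later ranks in knockout. The ranks overlapped at the end of Kcnj2, the inward rectifier Kir2.1, with 4401 and 4727 in knockout and 3395, 5003 and 4387 in wildtype. The end of Kcnab2, a beta subunit of Kv1 channels, ranked 1277 and 2162 in knockout, against 3283, 4427 and 3470 in wildtype (log2 rank difference -1.15, adjusted p = 0.0815 by limma, described below). This region also lies within 1 kb of Nphp4, so it cannot be given to one gene.

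**Figure D1:**
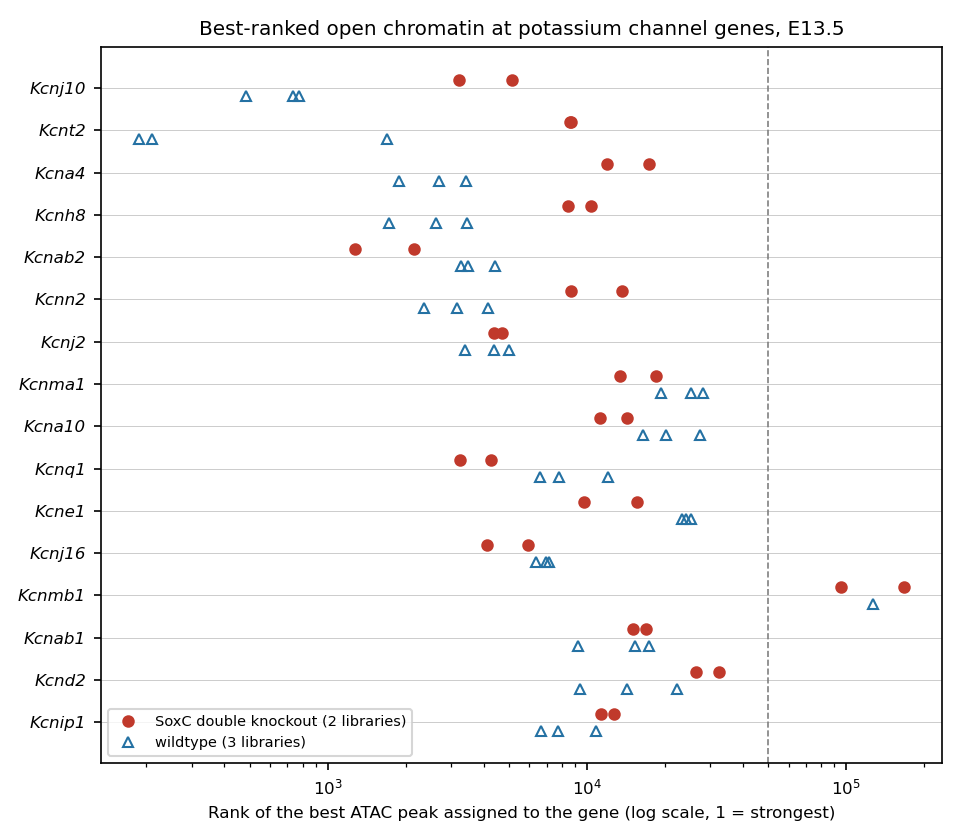
Rank of the best ATAC peak assigned to each gene (log axis, 1 the strongest) in 2 SoxC double knockout libraries (filled circles) and 3 wildtype libraries (open triangles), for genes with the best-ranked wildtype regions, in order of their worst wildtype rank, and then for further genes known from cochlear physiology; the dashed line marks rank 50000. All wildtype points are ahead of the knockout points at Kcnj10, Kcnt2, Kcna4, Kcnh8, Kcnn2, Kcnd2 and Kcnip1. Genes of the first group were picked by wildtype rank, which favours wildtype points ahead. All knockout points are ahead at Kcnab2, Kcnma1, Kcna10, Kcnq1, Kcne1 and Kcnj16, and the genotypes overlap at Kcnj2 and Kcnab1. Kcnmb1 has peaks beyond rank 50000 alone and none in wildtype replicates 1 and 3.

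Genes of mature cochlear function were nearly all near open chromatin. Of 12 such genes, 11 were open in both genotypes, as were 13272 of all 20665 coding genes. The 12 genes had a median span of 190055 bp, beside 17491 bp for all coding genes, and length was not adjusted for. An open gene end was found at 4 of them in knockout (33.3%) and at 5 in wildtype (41.7%), beside 58.7% and 56.1% of all coding genes. Kcnmb1, the beta1 subunit of BK channels, was the gene open in neither genotype and had no region. Its peaks had rank 167022 and 95859 in knockout and rank 126541 in wildtype replicate 2 alone. Kcna10, a Kv1 channel of hair cells, had 6 open regions in knockout and 4 in wildtype. The one with the best knockout ranks, inside the gene and 5033 bp from its end, ranked 14350 and 11262 in knockout, against 16414, 20237 and 29563 in wildtype. These ranks did not overlap, but the test was not passed (log2 rank difference -0.75, adjusted p = 0.136 by limma). Regions open in 1 genotype only, here and below, were picked by the same ranks that the fit compares. The direction of their differences was thus largely set beforehand. Kcnj16, the Kir5.1 partner of Kir4.1, had 4 open regions in each genotype. The one open in wildtype only, 5879 bp from the gene, ranked 59464 and 94481 in knockout, against 36809, 28756 and 21957 in wildtype, and was the only region of the gene to pass the test (1.39, adjusted p = 0.0115 by limma, and 0.174 without knockout replicate 2).

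The auxiliary subunits among these genes showed both directions. Kcne1, the partner of Kcnq1, had no open end, and a region 4594 bp from it ranked 9754 and 15564 in knockout, against 23507, 30853 and 25152 in wildtype. The groups did not overlap (-1.10, adjusted p = 0.0314 by limma), but the call was lost without knockout replicate 1 (0.385), knockout replicate 2 (0.0519) or wildtype replicate 2 (0.0971), and when ranked by fold enrichment (difference -0.40, adjusted p = 0.502 by limma). Kcnip1, a calcium-binding subunit of Kv4 channels, had a region inside the gene that was open in wildtype only, at rank 190849 and 85532 in knockout, against 37625, 24420 and 31717 in wildtype (2.05, adjusted p = 0.00251 by limma, and 0.0733 without knockout replicate 1). Its strongest region, also inside the gene, ranked 11370 and 12694 in knockout, against 7744, 10881 and 6673 in wildtype, and did not pass (0.54, adjusted p = 0.300 by limma).

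By the same measure 23 channel genes had no region open in all wildtype libraries. Among them were Kcna7, Kcnc4, Kcne2, Kcng1, Kcng4, Kcnh3, Kcnh4, Kcnj12 and Kcnj13. Kcng4, which modifies Kv2 channels, ranked no better than 71257 and 83268 in knockout and 74316, 111566 and 157677 in wildtype. Kcnh3, an Elk-type channel of forebrain neurons, ranked no better than 65873 and 93988 in knockout and 90101, 69318 and 121851 in wildtype.

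To compare genotypes, log2 ranks in the full lists were fitted with limma over the 61042 regions that had a peak in all 5 libraries. A positive difference means a later rank, that is a weaker peak relative to the rest of its library, in knockout. Of the 539 regions of channel genes 434 entered the fit, from 80 genes. Their median difference was 0.12, beside -0.02 over the 53790 tested regions of other coding genes. At an adjusted p of 0.05, 71 regions of 34 channel genes ranked further down in knockout, or 16.4%, beside 13.4% of the regions of other genes, and 36 regions of 25 genes ranked further up, or 8.29%, beside 14.0%. Neither share was tested against that of other genes. Both kinds occurred at 8 genes. Ranked by fold enrichment in place of -log10 p, 53 channel regions were further down and 50 further up, so that 51.5% of the channel calls were further down, beside 66.4% by -log10 p. Without knockout replicate 1 the counts were 35 and 5, and without knockout replicate 2 they were 39 and 14. In each of the 5 fits that left out 1 library, 27 of the regions further down, at 18 genes, and 4 of the regions further up, at 4 genes, were called again.

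**Figure D2:**
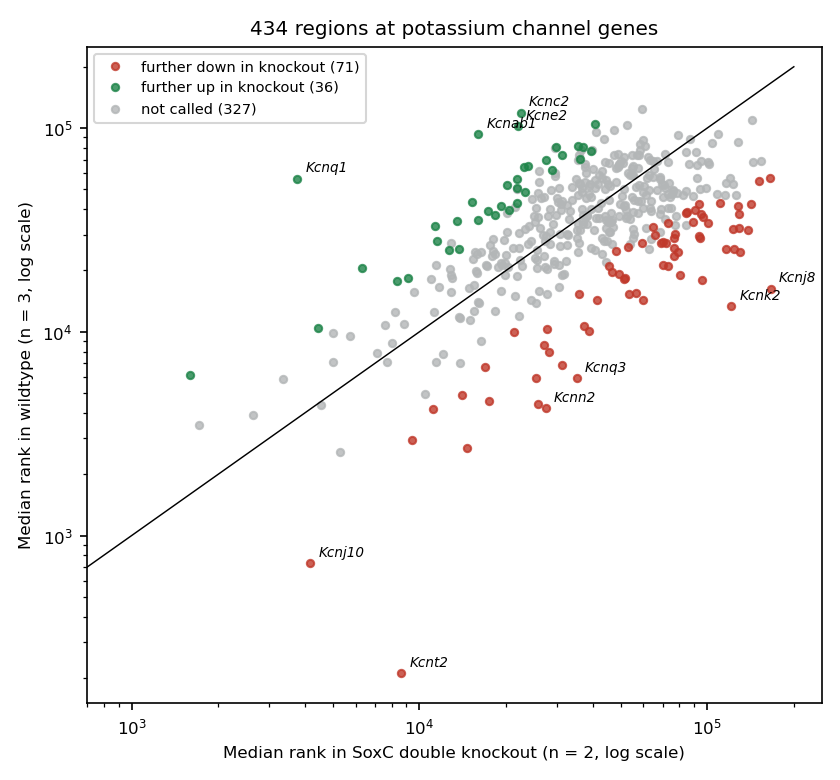
Median rank of each of the 434 tested regions at channel genes in SoxC double knockout (n = 2, x axis) against wildtype (n = 3, y axis), both on log axes; red points were called further down and green points further up in knockout by limma, grey points were not called, and the line marks equal rank. The region at the end of Kcnt2 stands lowest, at a median rank of 8616 in knockout and 211 in wildtype, and a region inside Kcnq1 stands farthest above the line.

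Voltage-gated alpha subunits held most of the regions further down, and also 184 of the 434 tested regions. Of these 184, 41 regions at 17 genes ranked further down (22.3%) and 11 further up (5.98%), with a median difference of 0.35. Over regions of other coding genes the shares were 13.4% and 14.0%. Several of the 41 lay at the same long genes, such as Kcnh7 and Kcnh8, so they are not separate instances of the class. The other classes had lower counts. Calcium- and sodium-activated channels had 7 down and 6 up of 52 (median -0.37), inward rectifiers 6 and 2 of 53 (median -0.34), Kcnk channels 5 and 6 of 52 (median -0.13), and auxiliary subunits 12 and 11 of 89 (median 0.17). None of the 4 regions of Kcnrg was called. Differences between classes were not tested. At gene ends 12 of 31 regions of voltage-gated alpha subunits ranked further down and 2 further up. Over all channel genes 17 of 73 regions within 1 kb of an end ranked further down (23.3%), beside 12.3% of such regions of all genes, and 5 ranked further up (6.85%), beside 18.0%. The median difference at these ends was 0.25 for channel genes and -0.14 for all genes.

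**Figure D3:**
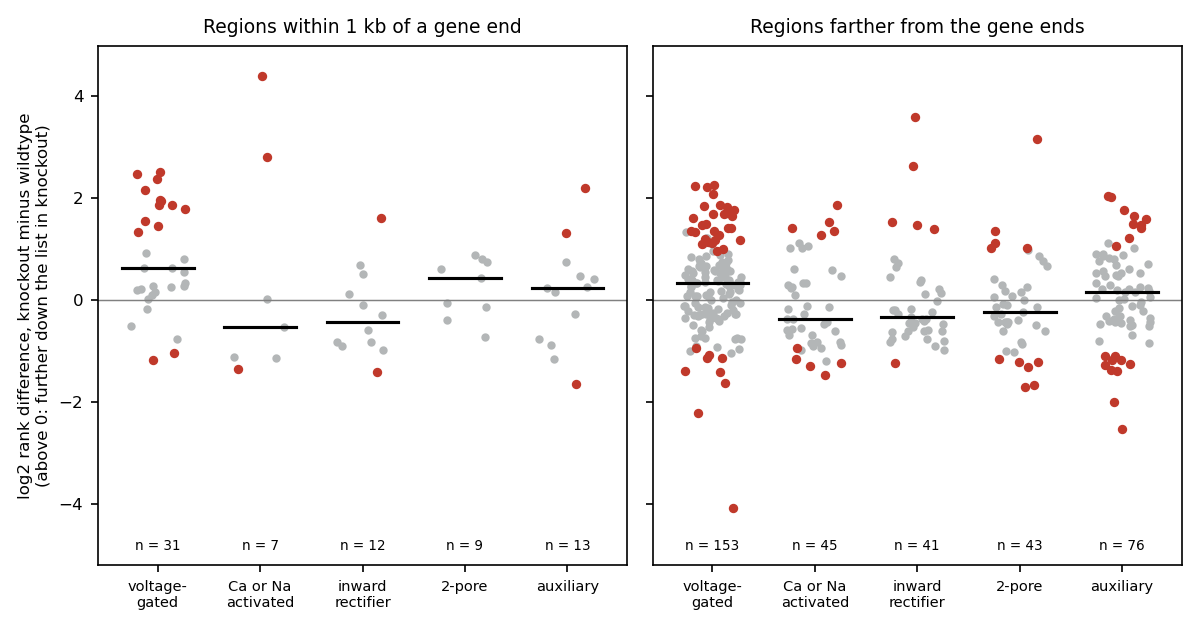
Log2 rank difference, knockout minus wildtype, of the tested regions at channel genes by class, within 1 kb of a gene end (left) and farther away (right); red points passed an adjusted p of 0.05 by limma, grey points did not, and bars mark class medians (0.62 for voltage-gated alpha subunits at gene ends). Most called regions at the ends of voltage-gated genes lie above 0.

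The 17 regions at gene ends belonged to 16 genes. The largest difference among all channel regions was at Kcnt2, the sodium-activated channel Slick. Its lower-coordinate end, which the printed promoter window covers (chr1:140245421-140245936), ranked 8575 and 8657 in knockout, against 1699, 211 and 187 in wildtype. It was one of the strongest peaks in wildtype replicates 2 and 3, and the groups did not overlap (log2 rank difference 4.41 ± 0.77 (SE), adjusted p = 0.000922 by limma). The -log10 p of the same peak was nevertheless higher in knockout, at 493 and 303, than in wildtype, at 263, 274 and 224. In 52 of the 71 regions further down the highest knockout -log10 p exceeded every wildtype one, as it did in 6630 of the 9141 regions further down over the whole genome. Ranks compare a region with the rest of its library, and no absolute loss of accessibility can be read from them.

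Kcnn2 encodes the SK2 channel that answers cholinergic efferents in hair cells. A region 98 bp from its end (chr18:45268128-45268652) ranked 28874 and 25999 in knockout, against 4210, 4431 and 3166 in wildtype (difference 2.81 ± 0.38, adjusted p = 0.000158 by limma). Kcnq3, a subunit of the neuronal M current, ranked 45450 and 24962 at its end (chr15:66286546-66287062) in knockout, against 5903, 5244 and 6561 in wildtype (2.52 ± 0.38, adjusted p = 0.000348 by limma). No wildtype rank at either gene reached the knockout ranks. Kcna4 gives a fast inactivating A-type current. At its end (chr2:107290335-107290865) the ranks were 17361 and 11949 in knockout, against 2681, 3405 and 1888 in wildtype (2.48 ± 0.44, adjusted p = 0.000922 by limma). Kcnh7, an erg-type channel, had 113314 and 74152 in knockout, against 25516, 29535 and 40874 in wildtype, over its end, and a neighbouring region 189 bp outside it (chr2:63184476-63184993) ranked 131311 and 117468 in knockout, against 25516, 30661 and 17676 in wildtype. The second of these differed by 2.37 ± 0.37 (adjusted p = 0.000389 by limma). Both Kcnh7 regions overlapped 1 merged peak of wildtype replicate 1, so they are not independent.

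Further gene ends followed the same order. The end of Kcnip4, a calcium-binding subunit of Kv4 channels, ranked 34552 and 28264 in knockout, against 8816, 6854 and 5103 in wildtype (2.21 ± 0.38, adjusted p = 0.000775 by limma). Kcnd2 encodes such a Kv4 channel, Kv4.2. Its end (chr6:21215194-21215712) was outside the 50000 strongest peaks in knockout, at 56906 and 62689, against 26869, 14251 and 9394 in wildtype (1.96 ± 0.41, adjusted p = 0.00267 by limma). At Kcnq5, a relative of Kcnq3, the ranks were 27454 and 24252 in knockout and 10565, 4430 and 4049 in wildtype. At Kcnb2, the delayed rectifier Kv2.2, they were 28270 and 22557 in knockout and 11128, 5906 and 4205 in wildtype. No overlap was seen at either gene. At Kcnv1, a silent subunit that modifies Kv2 channels, they were 60505 and 52906 in knockout and 19728, 12356 and 15435 in wildtype. The end of Kcnh5, an eag-type channel, ranked 46046 and 61209 in knockout and 17325, 15365 and 11746 in wildtype. In all 4 of these genes, Kcnq5, Kcnb2, Kcnv1 and Kcnh5, every wildtype rank was ahead of every knockout rank, with differences of 2.17 at Kcnq5, 1.95 at Kcnb2, 1.86 at Kcnv1 and 1.86 at Kcnh5. From Kcnt2 to Kcnh5, the 11 end regions named with a difference in these paragraphs were called in every one of 12 alternative settings, out of 22 end regions called in either direction. The ends of Kcna1, Kcnab1, Kcnh8 and Kcns2, and the Kcnh7 end itself, lost their call without knockout replicate 1, at adjusted p of 0.146, 0.0865, 0.102, 0.111 and 0.140 by limma, and some in further settings. The end of Kcnj8 lost it when ranked by fold enrichment, at 0.176. None of the 5 ends further up, at Kcna7, Kcnab3, Kcnd3, Kcnj6 and Kcnma1, kept its call in every setting.

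Away from gene ends, the largest difference among regions further down was inside Kcnj8, which encodes Kir6.1, a pore of ATP-sensitive channels. The region (chr6:142568647-142569196), 2418 bp from the gene's end, ranked 163927 and 168037 in knockout, against 18825, 16285 and 8559 in wildtype (3.59 ± 0.38, adjusted p = 2.69e-05 by limma). Here the -log10 p was lower in knockout as well, at 8.57 and 4.31, against 63.4, 37.8 and 48.6 in wildtype. A region inside Kcnk2, the mechanosensitive channel TREK-1 (chr1:189256917-189257448), ranked 102878 and 139612 in knockout, against 23180, 13354 and 7678 in wildtype (3.17 ± 0.42, adjusted p = 0.000123 by limma). The Kcnj10 region with the best wildtype ranks of all, given above, also differed (2.64 ± 0.56, adjusted p = 0.00296 by limma). It was picked by those wildtype ranks, which favours a later rank in knockout. The region at the end of Kcnj10 ranked 10865 and 12005 in knockout and 7072, 6354 and 7923 in wildtype and did not pass (0.69, adjusted p = 0.178 by limma). Kcnh8, an Elk-type channel, had the most regions further down, 8, followed by Kcnh7 with 6. The Kcnh8 region 1246 bp from the gene ranked 10336 and 8494 in knockout, against 3453, 1724 and 2929 in wildtype (1.85 ± 0.45, adjusted p = 0.00709 by limma), and lost its call without knockout replicate 1 (0.0678) and when ranked by fold enrichment (0.0845).

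Further wildtype-only regions of long genes were among those called. Such regions were picked by the same ranks that the fit compares, so a positive difference was largely set beforehand. Their adjusted p is therefore no independent support for a genotype difference. Inside Kcnh1, an eag-type channel, a region (chr1:192347281-192347823) ranked 81622 and 110772 in knockout, against 25373, 17903 and 17478 in wildtype (2.25 ± 0.35, adjusted p = 0.000385 by limma). Inside Kcnmb2, a beta subunit of BK channels, a region (chr3:31967610-31968134) ranked 95710 and 93171 in knockout, against 34906, 28752 and 12185 in wildtype (2.04 ± 0.42, adjusted p = 0.00259 by limma). Both calls held without any 1 library. At Kcnk10, the mechanosensitive channel TREK-2, a region 22863 bp from the gene ranked 87845 and 65855 in knockout, against 42528, 23797 and 25744 in wildtype (1.36, adjusted p = 0.0134 by limma), and lost its call without knockout replicate 1 (0.173) or wildtype replicate 2 (0.0571). The wildtype-only region nearest to Kcnip4, 95586 bp away (chr5:49620708-49621235), could not be fitted, since knockout replicate 1 had no peak there. Knockout replicate 2 had one at rank 135060, against 9892, 4882 and 2587 in wildtype.

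Fewer channel regions ranked further up in knockout, and 1 of them stood far from the rest. It lay inside Kcnq1, the voltage-gated channel that with Kcne1 secretes potassium into the endolymph (chr7:143324996-143325527, 101523 bp from the nearer gene end). It ranked 3251 and 4279 in knockout, against 49883, 56515 and 89910 in wildtype (-4.08 ± 0.37, adjusted p = 8.33e-06 by limma). Every knockout rank was far ahead of every wildtype rank. The gene holds 13 tested regions, and the strongest wildtype one, at 8613 and 5666 in knockout and 6605, 7833 and 12063 in wildtype, did not pass (-0.29, adjusted p = 0.620 by limma). A region inside Kcnab1, a beta subunit of Kv1 channels (chr3:65236957-65237473), ranked 16844 and 15067 in knockout, against 93468, 134237 and 62829 in wildtype (-2.54 ± 0.38, adjusted p = 0.000338 by limma). A region 21177 bp from Kcnc2, the fast channel Kv3.2, ranked 21792 and 23182 in knockout, against 119004, 64487 and 149272 in wildtype (-2.22 ± 0.42, adjusted p = 0.00157 by limma). Another, 25701 bp from Kcna6, ranked 6285 and 6375 in knockout and 20486, 16113 and 22375 in wildtype (-1.62 ± 0.36, adjusted p = 0.00425 by limma). These 4 regions were called in every alternative setting.

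The other regions further up were less stable. Regions near Kcne2, an ancillary subunit of Kcnq1, at Kcnab3 and near Kcnk18 had differences of -1.99, -1.65 and -1.67, and each lost its call without knockout replicate 1, at adjusted p of 0.0646, 0.204 and 0.0675 by limma. A region 42439 bp from Kcnk1, the channel TWIK-1, ranked 1278 and 1914 in knockout, against 6618, 6127 and 3228 in wildtype (-1.70, adjusted p = 0.0169 by limma), and lost its call without knockout replicate 1 (0.139), without wildtype replicate 2 (0.0786) and when ranked by fold enrichment (0.806). Kcnma1 encodes the BK channel of inner hair cells, and 5 of its 21 tested regions ranked further up, with none further down. Their differences ran between -0.95 and -1.47, and all 5 calls were lost without knockout replicate 1. In knockout 17 regions were open at this gene, against 6 in wildtype.

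**Figure D4:**
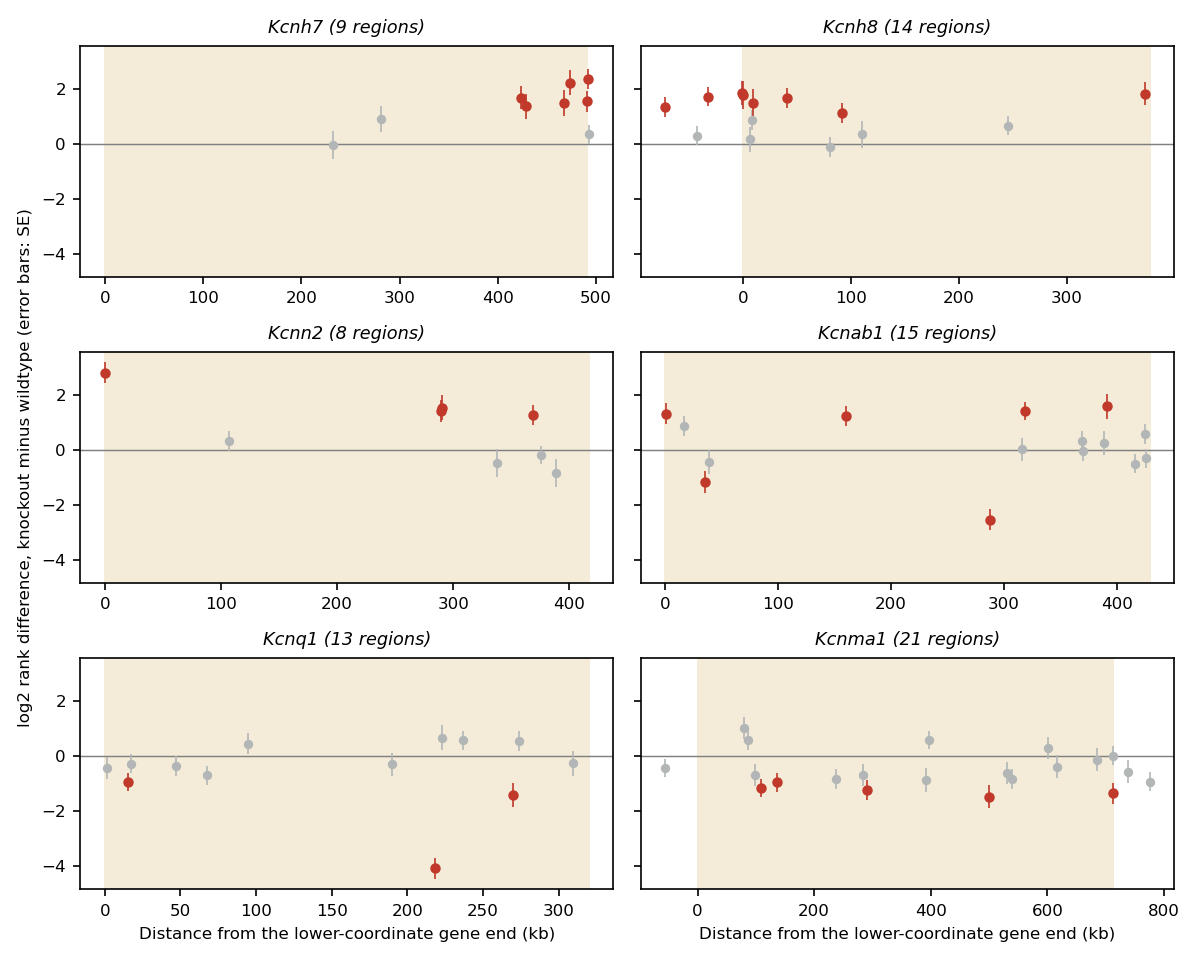
Log2 rank difference, knockout minus wildtype, of tested regions along 6 long channel genes, by distance from the lower-coordinate gene end in kb; shading marks the gene, error bars the SE, and red points passed an adjusted p of 0.05 by limma. Called regions of Kcnh7, Kcnh8 and Kcnn2 all lie above 0, those of Kcnq1 and Kcnma1 all lie below, and Kcnab1 has 4 above and 2 below.

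Some regions were open in 1 genotype and in no library of the other among the 50000 strongest peaks. Of these, 40 channel regions of 29 genes were knockout-only (7.42%, beside 8.48% of all regions with a gene) and 41 of 24 genes were wildtype-only (7.61%, beside 5.80%). Of the wildtype-only regions 40 had a weaker peak in both full knockout lists, and none lacked one in both. The 40 knockout-only regions included 17 with a weaker peak in each full wildtype list and 1, near Kcna10, with none. Knockout-only regions were most numerous at Kcnma1, with 3, and numbered 2 each at Kcna10, Kcna7, Kcnab1, Kcne3, Kcng1, Kcnj15, Kcnj6, Kcnk1 and Kcnq1, and 1 at Kcna1 and Kcna2, the next by name. Wildtype-only regions were most numerous at Kcnh8, with 6, and numbered 3 each at Kcnb2, Kcnd2, Kcnh7, Kcnk10 and Kcnmb2, 2 each at Kcnh1 and Kcnk2, and 1 at Kcna10, Kcna3, Kcnab1 and Kcnc2, the next by name. Without knockout replicate 2 there were 71 knockout-only regions.

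Gene length and surroundings differed along with these classes. The 22 genes with knockout-only regions alone had a median span of 24100 bp and 14 coding genes with midpoints within 500 kb, while the 17 with wildtype-only regions alone had 194853 bp and 4 coding genes. Regions further down in knockout had a median of 3 coding genes within 500 kb and those further up 11, against 6 and 17 over all called regions with a gene. The difference in gene density between the directions was thus shared with the genome at large, and its part in the results on channel genes was not tested.

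Sox4 peaks lay near many channel genes, but rarely at the same place in different replicates. Of the 20000 strongest Sox4 peaks in each replicate, 128, 129 and 130 windows belonged to channel genes in replicates 1 to 3. At least 1 window in any replicate was nearest to 70 of the 92 genes, beside 62.0% of all genes, and 30 genes had one in each of the 3 replicates, beside 15.6%, at places that need not coincide. Longer genes with fewer neighbours collect more windows by nearest gene, and this was not adjusted for. A Sox4 site, shared at 1 place by at least 2 replicates, stood near 7 channel genes (7.61%), beside 6.51% of all coding genes. The share was near the background. No control antibody library was used here, so a window is a peak over its own local background only.

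The 9 sites lay at Kcna4, Kcnd2 (2 sites), Kcnh5, Kcnh7 (2 sites), Kcnk1, Kcnn1 and Kcnt1. The Kcnh5 site (chr12:74803950-74804540) was among the strongest Sox4 peaks of the whole genome, with ranks 8, 6 and 4 and -log10 p of 52.2, 55.7 and 95.7, and was the only one in all 3 replicates. It lies 92677 bp from the gene, near the limit of 100 kb, and was in no open region of either genotype. Of all Sox4 windows in replicates 1 to 3, only 8.66%, 9.24% and 10.8% lay in chromatin open in wildtype. Among the windows of channel genes the shares were 3.91%, 4.65% and 3.85%. Of the 9 sites, that of Kcnn1 alone lay in chromatin open in both genotypes. Kcnn1 encodes the small-conductance channel SK1, and the site (chr8:70865390-70865919) covers its higher-coordinate end, with Sox4 rank 1642 in replicate 1 and 465 in replicate 3. The open region over it ranked 4434 and 2267 in knockout, against 5890, 5458 and 10390 in wildtype, and did not pass the test (-1.13, adjusted p = 0.0769 by limma). Of the 7 genes, Kcna4, Kcnd2, Kcnh5 and Kcnh7 had ends further down in knockout, though no site overlapped those ends. Over all channel genes 17 of 73 tested regions at gene ends ranked further down. That is a share of regions and not of genes, so it is not a like measure for the genes with a site. Kcnd2, Kcnh5 and Kcnh7 are long, at 514, 280 and 491 kb, beside a median of 34546 bp for channel genes, while Kcna4 spans 36.2 kb. Whether Sox4 sites and ends further down go together was not tested. The Kcna4 site lay 21784 bp from the gene, at ranks 14509 and 19879 in replicates 1 and 3, and one Kcnh7 site 16300 bp away, at 2114 and 6791 in the same replicates. The ranks of weaker peaks include ties. In replicate 1, 16258 peaks shared the -log10 p of 6.16 found at rank 20000, and in replicate 3, 7479 peaks shared 4.24, and tied peaks were kept in order of position. With all tied peaks left out, an alternative added after the data were seen, 5 channel genes had a site. Without replicate 1 or replicate 3 there were 2 genes each, and with sites required in all 3 replicates Kcnh5 alone remained.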

How the data were processed

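Open chromatin was measured by ATAC-seq in 2 SoxC double knockout and 3 wildtype libraries and Sox4 binding by CUT&RUN in 3 replicates. The deposited files were peak lists, 1 per library, with fold enrichment deposited as a ratio over local background, significance deposited as -log10 p and -log10 q, and the summit position within each peak in bp. Tools named in the submitters' processing notes are STAR, MACS2 and deepTools (MACS2 and deepTools alone for wildtype replicate 2, STAR and MACS2 alone for replicate 1), UMI-tools for Sox4, and the builds mm10 and GRCm38. A second deposited list of Sox4 replicate 1 was used as an alternative only. Single-cell matrices gave no gene names and were not used.

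Overlapping autosomal peaks were merged and ranked by -log10 p. The 50000 strongest ATAC and 20000 strongest Sox4 peaks were cut to summit windows reaching 250 bp either way and joined into regions across libraries. The gene table gave no strand, so either gene end was used, and a gene end could be open through a region that is nearest to another gene. Log2 ranks were fitted with limma 3.58.1 in R 4.3.3 (empirical Bayes with trend, Benjamini-Hochberg adjustment over 61042 regions), without a block for replicate numbers. The fit was checked on simulated data. Python 3.11.15 with pandas 2.3.3 and numpy 2.4.6 made the other values. No read totals were given, so precision rests on the spread of 2 and 3 libraries.

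The channel genes, the gene lists and the rule for named genes were chosen with earlier results of these data known. The rule took 12 genes of cochlear physiology, the 8 genes with the best wildtype regions, up to 10 genes with none, up to 12 genes each with genotype-only regions, the 8 largest called regions each way and every gene with a Sox4 site. Some genes that the rule names are not reported here. Alternatives changed the number of peaks, window, ranking, gene distance, filter, normalization, block and replicates.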

Additional observations from a re-analysis of the deposited data

How the results depend on the processing

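None of the 107 called channel regions changed direction in the 11 alternative fits that tested each of them: of 1177 values, 887 kept their call and 290 lost it. With 25000 ATAC peaks, 42 channel genes were open in wildtype, 28 had an open end, and 20 regions each were knockout-only and wildtype-only. Leaving out 1 ATAC library gave 48 to 71 knockout-only and 50 to 61 wildtype-only regions, 69 to 73 open genes and 44 to 46 open ends. In the fit it gave 35 to 76 regions further down and 5 to 46 further up; without a knockout library the lone other one is assumed to vary like the wildtype. With a missing peak placed after the end of its list, 83 ranked further down and 57 further up. The replicate numbers share a name only, with correlations of deviations of 0.0999 and 0.0592 for the 2 pairs, and the fit with replicate number as a block called 89 further down and 38 further up. By fold enrichment the median difference over all 61042 regions was 0.28, against 0.04 by -log10 p. Sox4 sites were found at 3 channel genes with 10000 peaks, at 17 with as many peaks as the shortest list, at 1 with all 3 replicates required, at 2 to 6 when 1 replicate was left out, and at 5 with tied peaks left out, a setting chosen after seeing the data. The cause of these changes was not tested. Unknown depth limits every comparison of single regions.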

Other observations

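Other genes of potassium handling, a list of 30 that covers pumps, cotransporters, gap junction proteins and partner proteins of the channels, lay near open chromatin at 27 genes in knockout and at 23 in wildtype (90% and 76.7%, beside 72.1% and 65.9% of all coding genes). Of their 135 tested regions 26 ranked further down in knockout (19.3%, beside 13.4% of regions of coding genes other than the channel genes) and 11 further up (8.15%, beside 14.0%), with a median difference of 0.17. These shares were not tested against each other. Abcc9 encodes a sulfonylurea receptor that joins Kcnj8 in ATP-sensitive channels and lies beside it on chromosome 6. A region of Abcc9 ranked 57340 and 62537 in knockout, against 41096, 16081 and 20746 in wildtype (1.32, adjusted p = 0.0206 by limma), and lost its call without knockout replicate 1 (0.0929), knockout replicate 2 (0.103), wildtype replicate 2 (0.0904) or wildtype replicate 3 (0.0507). Lrrc52, a gamma subunit of potassium channels, had 2 Sox4 sites, neither in open chromatin.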
